A study of Mus musculus with 58 samples.

Results

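The 10 genes described here control whether microglia survive or die: Bcl2, Bcl2l1, Mcl1, Bcl2a1a, Bcl2a1b, Bcl2a1d, Bcl2l11, Birc2, Birc3 and Cflar. They were chosen by symbol as the BCL2 and inhibitor of apoptosis (IAP) survival genes, and each matched 1 Ensembl identifier among the 47643 genes of the microglia count tables. The rule goes by symbol alone and sets no threshold on a measured value, but the set was picked with earlier results of these data known.

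Apoptosis is decided at the outer membrane of mitochondria by the BCL2 family. The guardians BCL2, BCL-XL (from Bcl2l1), MCL1 and A1 (from the Bcl2a1 genes) hold the pore-forming effectors in check, and BH3-only proteins such as BIM (from Bcl2l11) bind and neutralise the guardians. At death receptors the ubiquitin ligases cIAP1 and cIAP2 (from Birc2 and Birc3) keep tumour necrosis factor signalling on its survival branch, and c-FLIP (from Cflar) blocks the activation of caspase 8. Birc3, Cflar and the A1 genes are textbook targets of NF-κB, the transcription factor that the kinase IKKβ (from Ikbkb) releases from its inhibitor.

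The study asked how tau acts on microglia through NF-κB, and 34 of its 58 samples are microglia libraries; the 24 cortex samples are not analysed here. Wild-type primary microglia received full-length tau fibrils at 2 μg/ml for 24 h or vehicle, with 4 libraries each. Adult microglia were enriched with CD11b beads from male PS19 mice, in which the prion promoter drives human P301S tau, and from non-transgenic (NTG) males at a stated age of 11 months, with 4 libraries each. By the labels, 2 NTG animals were 11.18 months old, and the remaining 6 animals of both genotypes were 10.98 months old.

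Microglia with constitutively active IKKβ (IkbkbCA, Cx3cr1CreERT2/+; IkbkbCA F/F) were compared with IkbkbWT microglia (Cx3cr1+/+; IkbkbCA F/F), with 5 libraries each. Microglia with deletion of Ikbkb (Ikbkb-/-, Cx3cr1CreERT2/+; Ikbkb F/F) were compared with Ikbkb+/+ microglia (Cx3cr1+/+; Ikbkb F/F), with 4 libraries each. The cultured cells came from brains of newborn pups, and the cultures of both Ikbkb experiments, controls included, were given 4-hydroxytamoxifen to activate Cre. The Cre is inserted into 1 copy of Cx3cr1 and was carried only by the IkbkbCA and Ikbkb-/- cultures, so its own effect cannot be told apart from that of Ikbkb. Nothing in the labels says which libraries come from separate cultures or pups, so p-values measure the spread between libraries, which may be technical.

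Libraries held 1672052 to 8349128 counts on genes, and 12.4% to 38.3% of uniquely mapped reads lay outside annotated genes, the highest share in PS19 replicate 2. All 10 microglia markers were counted in all 8 groups. Levels are CPM, counts scaled to library size by the trimmed mean within each comparison, and a gene is called a DEG at a false discovery rate (FDR) under 0.05 over all genes tested. Ikbkb was at 45.9 to 55.0 CPM in Ikbkb+/+ and 18.8 to 25.4 CPM in Ikbkb-/- microglia, a log2 fold change of -1.20 ± 0.12 (SE) with an edgeR FDR of 6.34e-07. Ikbkb RNA was thus still counted in every Ikbkb-/- library, and how much IKKβ protein was left cannot be read from these counts. In IkbkbCA microglia Ikbkb lay at 45.0 to 59.8 CPM against 41.2 to 58.6 CPM in IkbkbWT, with overlapping ranges. It is not stated whether the transgene carries the 3′ end that these libraries count, so this does not check the label. The paper reported raised Ikbkb mRNA in IkbkbCA cultures by quantitative PCR.

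The A1 genes are near-identical neighbours on chromosome 9, which bears on every value given for them. On GRCm38, Bcl2a1a lies at chr9:88956900-88962419 and Bcl2a1b at chr9:89199209-89207827, both on the plus strand, and Bcl2a1d lies at chr9:88723285-88731914 on the minus strand. Their aligned transcripts were 98.2% identical between Bcl2a1a and Bcl2a1b, 98.8% between Bcl2a1a and Bcl2a1d, and 99.1% between Bcl2a1b and Bcl2a1d. Of all 50-base windows in the last 500 bases of the transcript, the end that 3′ sequencing reads, 66.7% in Bcl2a1a, 66.7% in Bcl2a1b and 87.8% in Bcl2a1d also occur in another A1 gene. Reads that fit several places were not counted, so each A1 value rests on the remaining stretches and the split between copies is uncertain. The sequence just before the start of the transcript is shown for Bcl2a1a and Bcl2a1b because the counts of these 2 genes parted most. Over 186 aligned bases (RefSeq, GRCm38.p6, plus strand, chr9:88956714-88956899 for Bcl2a1a and chr9:89199023-89199208 for Bcl2a1b) they differ at 1 position, in capitals, and are 99.5% identical.
Bcl2a1a: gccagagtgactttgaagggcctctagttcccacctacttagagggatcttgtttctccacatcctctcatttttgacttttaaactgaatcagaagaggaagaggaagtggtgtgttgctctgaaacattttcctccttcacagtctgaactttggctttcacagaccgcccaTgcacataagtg
Bcl2a1b: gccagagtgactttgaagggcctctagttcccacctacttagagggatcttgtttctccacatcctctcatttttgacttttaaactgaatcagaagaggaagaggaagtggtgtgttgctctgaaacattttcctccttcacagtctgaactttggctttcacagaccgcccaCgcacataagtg

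The κB consensus, the sequence that NF-κB binds, was searched on both strands of the 300-base windows from 250 bases before to 50 after each start. It occurred in 4.51% of 32851 windows of all genes and in 1 of the 14 windows of the survival genes. A looser κB pattern, which fixes only the outer bases, occurs in 50.8% of all windows. It was found for Bcl2, Bcl2l1, Mcl1, Bcl2a1b, Bcl2l11, Birc3 and Cflar, and not for Bcl2a1a, Bcl2a1d and Birc2. The consensus match, GGGGGTCTCC, begins 242 bases before 1 start of Bcl2l1. No consensus match in the other windows says only that the letters of the consensus are absent from them.

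The remaining genes lie apart from each other except for the cIAP pair. Birc2 lies at chr9:7818227-7837064 and Birc3 at chr9:7848699-7873186, both on the minus strand. Bcl2 lies at chr1:106538178-106714274 and Bcl2l1 at chr2:152780668-152831728, both on the minus strand. Mcl1 lies at chr3:95658788-95663176, Bcl2l11 at chr2:128126038-128162547 and Cflar at chr1:58711508-58758884, all on the plus strand. An antisense gene, D630008O14Rik, shares 558 exon bases with Bcl2, and Gm29094 shares 401 exon bases with Bcl2a1b on the same strand, so reads in these stretches may be assigned to either gene or dropped.

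**Figure D1:**
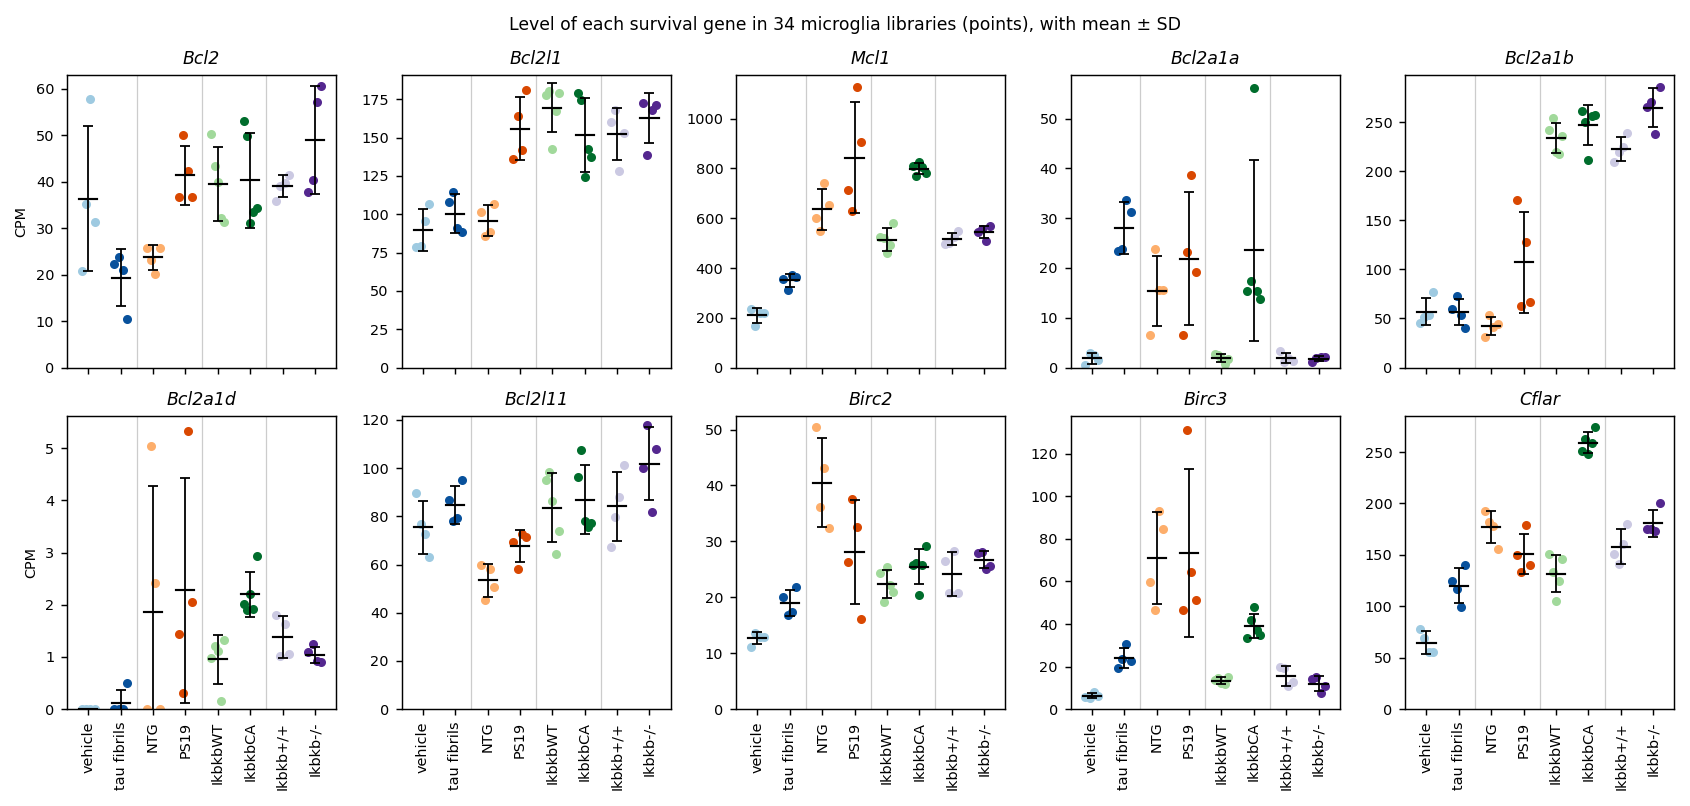
Level of each of the 10 survival genes in CPM (vertical axes, linear, scaled over all 34 libraries) in the 8 groups (horizontal axes). Each point is 1 library, the horizontal bar is the group mean and the whiskers are ± SD; Bcl2a1a reaches at most 3.23 CPM in the vehicle, IkbkbWT, Ikbkb+/+ and Ikbkb-/- groups and at least 6.45 CPM in the other groups, and Mcl1 and Cflar of the tau and IkbkbCA groups sit above all libraries of their own controls.

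Scaled over all 34 libraries, the survival genes did not share one order of the groups, and because the experiments were prepared apart their levels are a description with no test. Mcl1 was highest in PS19 microglia at 844 ± 223 CPM (SD, n = 4) and IkbkbCA microglia at 799 ± 22 CPM (SD, n = 5), and lowest in vehicle-treated microglia at 210.2 ± 30.4 CPM (SD, n = 4). In this order IkbkbCA lay wholly above the next group, NTG, the tau-stimulated group lay wholly below IkbkbWT, and the vehicle-treated group lay wholly below the tau-stimulated one. Cflar was highest in IkbkbCA microglia at 259 ± 10.2 CPM (SD, n = 5), wholly above the next group, and lowest in vehicle-treated microglia at 64.6 ± 11.0 CPM (SD, n = 4), wholly below its neighbour, with overlapping neighbours between.

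Birc3 was highest in adult microglia, with 73.4 ± 39.3 CPM for the PS19 group and 71.0 ± 21.6 CPM for the NTG group (SD, n = 4 each), and lowest in vehicle-treated microglia at 6.32 ± 1.30 CPM (SD, n = 4). IkbkbCA microglia came next at 39.1 ± 5.82 CPM (SD, n = 5) and did not overlap with the tau-stimulated group at 24.1 ± 4.70 CPM (SD, n = 4). Birc2 was also highest in NTG at 40.5 ± 7.96 CPM and lowest in vehicle-treated microglia at 12.7 ± 1.04 CPM (SD, n = 4 each), and only the lowest step, from tau-stimulated to vehicle-treated microglia, left a gap. Neighbouring groups overlapped throughout for Bcl2, with 49.0 ± 11.6 CPM in Ikbkb-/- and 19.4 ± 6.10 CPM in tau-stimulated microglia at the ends (SD, n = 4 each). The same held for Bcl2l11, with 102 ± 15.2 CPM in Ikbkb-/- and 53.4 ± 6.76 CPM in NTG microglia (SD, n = 4 each).

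Bcl2l1 fell into a higher set, from IkbkbWT at 169.6 ± 16.1 CPM to IkbkbCA at 151 ± 24.1 CPM (SD, n = 5 each), and a lower set, from tau-stimulated at 100.3 ± 12.8 CPM to vehicle-treated at 89.96 ± 13.6 CPM (SD, n = 4 each), with a gap between. Bcl2a1b had its gap between the 4 groups of the Ikbkb experiments, whose means were 223 to 265 CPM, and the other groups, whose means were 42.5 to 107 CPM. Bcl2a1a had its gap elsewhere, between NTG at 15.4 ± 7.08 CPM (SD, n = 4) and IkbkbWT at 1.92 ± 0.845 CPM (SD, n = 5). Bcl2a1d reached at most 5.32 CPM in the 34 libraries and was listed at 0 in every vehicle-treated library.

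Tau fibrils raised 4 of the survival genes and lowered 1. Of the 10 genes, 9 passed the filter on low counts, and 5 of these were DEGs, beside 29.9% of the 10408 genes tested. The 4 that rose stand beside 14.5% of all genes called higher, and the 1 that fell beside 15.4% called lower. The groups did not overlap for 5 of the 9 genes, all of them higher with tau, beside 28.3% of all genes tested and 14.1% higher. Bcl2a1a passed the filter only through the tau group, so a difference was built into its being tested. Of the other 8 genes, 3 rose, 1 fell, and 4 had groups that did not overlap. With 4 libraries a side an exact permutation test cannot go below p = 0.0286.

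Bcl2a1a stood at 25.2, 25.7, 36.1 and 33.6 CPM in the 4 tau-stimulated libraries and at 0.583, 3.25, 2.84 and 1.64 CPM in the 4 vehicle-treated ones. Every tau library was far above every vehicle library, where 1 to 16 reads were counted. The log2 fold change was 3.65 ± 0.33 (SE, FDR 1.20e-09), a 12.6-fold higher level. Bcl2a1b, the neighbouring copy, ranged from 43.2 to 78.5 CPM with tau and from 50.1 to 84.0 CPM with vehicle, with overlapping groups and a log2 fold change of -0.02 (95% interval -0.40 to 0.36, FDR 0.957). With the counts of all A1 genes summed, the copy Bcl2a1c included, the level was 90.1, 104, 93.7 and 77.4 CPM with tau and 50.7, 58.9, 62.0 and 85.6 CPM with vehicle. The sum rose by 0.51 ± 0.16 on the log2 scale (SE, FDR 0.0160), although 1 tau library lay below the highest vehicle library.

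Mcl1, the short-lived guardian, stood at 386, 334, 399 and 392 CPM with tau and at 259, 182, 238 and 240.5 CPM with vehicle. The groups did not overlap, and the log2 fold change was 0.72 ± 0.13 (SE, FDR 0.000118). Bcl2, the founding guardian, went the other way, at 24.0, 25.7, 22.6 and 11.2 CPM with tau and 22.7, 38.4, 63.4 and 34.4 CPM with vehicle. Only 2 of the 4 tau libraries lay below every vehicle library, and the exact two-sided permutation p was 0.0857. Its log2 fold change was -0.93 ± 0.26 (SE, FDR 0.00807), and without vehicle replicate 3, its highest library, the change was -0.63 with an FDR of 0.0706. Bcl2l1 differed by 0.14 (95% interval -0.16 to 0.44, FDR 0.508), and the BH3-only gene Bcl2l11 by 0.15 (95% interval -0.15 to 0.44, FDR 0.493), both with overlapping groups.

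Birc3 stood at 21.02, 25.3, 33.0 and 24.6 CPM with tau and at 6.41, 5.69, 8.99 and 6.54 CPM with vehicle. Every tau library was over every vehicle library, and the log2 fold change was 1.94 ± 0.27 (SE, FDR 2.40e-06). Birc2, its neighbour, was at 18.04 to 23.5 CPM against 12.2 to 14.8 CPM; the groups did not overlap, but its log2 fold change of 0.54 (95% interval 0.06 to 1.02) had an FDR of 0.0852. Cflar stood at 135, 125, 107 and 151 CPM with tau and at 85.1, 75.6, 60.5 and 61.1 CPM with vehicle. Its groups did not overlap either, and its log2 fold change was 0.87 ± 0.15 (SE, FDR 5.67e-05). Bcl2a1d had 1 read in 1 tau library and none in the other 7 libraries of this comparison, and was not tested.

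Markers of several cell types moved with the tau group. The 10 microglia markers summed to 12736.0 to 14551.9 CPM with tau and 5352.8 to 6817.7 CPM with vehicle, and 7 of 10 rose. The 8 neuron markers summed to 193 to 259 CPM with tau and 373 to 467 CPM with vehicle, with 6 of the 7 tested falling and all 8 counted in both groups. The 7 astrocyte markers summed to 385 to 450.1 CPM with tau and 708 to 761 CPM with vehicle, with 4 of 7 falling. In bulk libraries, fewer cells of a type and less RNA per cell cannot be told apart, and the part of these markers in the change of Bcl2 or of the other survival genes was not tested. The 9 neutrophil markers summed to 5.16 to 7.48 CPM with tau and 1.63 to 8.04 CPM with vehicle. Of these, Elane, Ly6g, Mpo and Retnlg were at 0 in all 8 libraries.

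**Figure D2:**
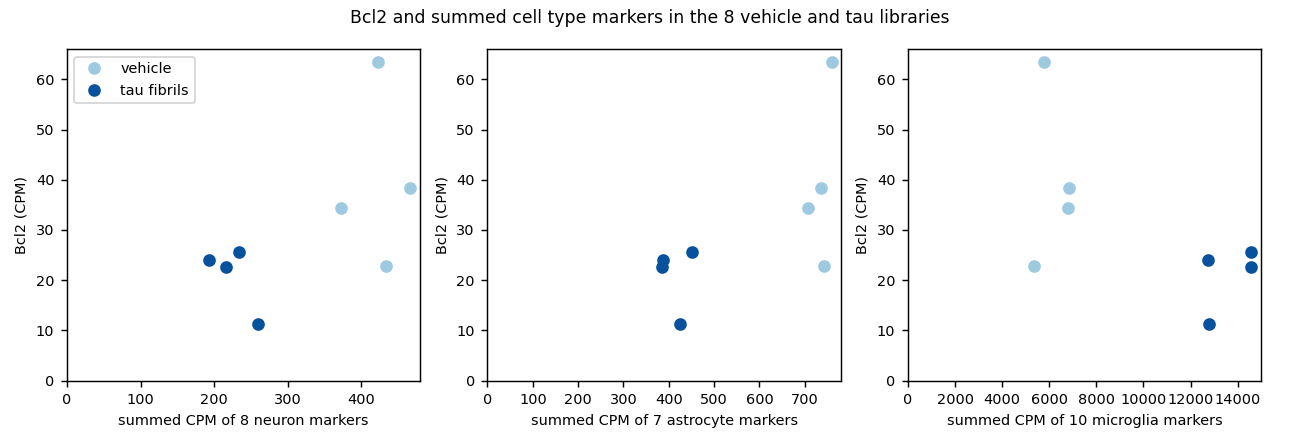
Bcl2 level (vertical axes, CPM) against the summed CPM of the neuron, astrocyte and microglia markers (horizontal axes) in the 4 vehicle-treated and 4 tau-stimulated libraries, 1 point each. The neuron, astrocyte and microglia sums separate the groups completely, whereas Bcl2 of 1 vehicle library, at 22.7 CPM, lies among the tau libraries.

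Constitutively active IKKβ raised Bcl2a1a, Mcl1, Birc3 and Cflar, the 4 genes that tau also raised, and Bcl2 did not pass the test. All 10 genes passed the filter, and 4 were DEGs, all higher, beside 14.5% of 11697 genes called in either direction and 7.31% called higher. The groups did not overlap for 5 of the 10 genes, all higher in IkbkbCA, beside 12.7% of all genes tested and 6.38% higher. The exact permutation test of 5 against 5 libraries cannot go below p = 0.00794, and these 5 genes reached it. One of them, Bcl2a1d, was not a DEG and passed the filter only through IkbkbCA, with 10 or more counts in 5 IkbkbCA libraries and 1 IkbkbWT library. Of the other 9 genes, 4 rose and the same number had groups that did not overlap.

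Bcl2a1a stood at 15.5, 17.4, 56.1, 15.6 and 14.02 CPM in IkbkbCA replicates 1 to 5 and at 2.76, 2.64, 1.92, 0.662 and 1.84 CPM in IkbkbWT. Every IkbkbCA library was above every IkbkbWT library, and replicate 3 stood over 3 times above the other IkbkbCA libraries. The log2 fold change was 3.59 ± 0.49 (SE, FDR 0.000440), and without IkbkbCA replicate 3 it was 3.01 with an FDR of 7.90e-05. Bcl2a1b was at 264, 251, 211, 261 and 263 CPM against 243, 258, 228, 228 and 248 CPM, with overlapping groups and a difference of 0.05 (95% interval -0.12 to 0.23, FDR 0.747). The summed A1 genes lay at 269.7 to 282 CPM in IkbkbCA and 229.5 to 262 CPM in IkbkbWT without overlap, yet the log2 fold change of 0.18 ± 0.06 had an FDR of 0.0916. Bcl2a1d lay at 1.92 to 3.004 CPM against 0.166 to 1.38 CPM, 10 to 14 reads against 1 to 12, with a log2 fold change of 1.14 (95% interval 0.28 to 2.00, FDR 0.0783).

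Mcl1 was tightly grouped, at 817, 774, 826, 820.2 and 799.8 CPM in IkbkbCA and 525, 527, 476, 515 and 608 CPM in IkbkbWT. The groups did not overlap, and its log2 fold change was 0.61 ± 0.08 (SE, FDR 0.000291). Birc3 stood at 33.6, 42.0, 47.8, 38.0 and 35.8 CPM in IkbkbCA and 13.7, 14.8, 12.7, 12.2 and 15.8 CPM in IkbkbWT. The lowest IkbkbCA library was over 2 times the highest IkbkbWT library, and the log2 fold change was 1.51 ± 0.12 (SE, FDR 1.46e-05). Cflar stood at 253, 264, 249, 264 and 279.6 CPM in IkbkbCA and 151, 135, 109, 131 and 153 CPM in IkbkbWT. Here too no library of one group reached the other, and the log2 fold change was 0.95 ± 0.09 (SE, FDR 5.04e-05).

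The other members had overlapping groups. Bcl2 was at 31.1 to 53.5 CPM in IkbkbCA and 32.9 to 50.6 CPM in IkbkbWT, with a log2 fold change of 0.01 (95% interval -0.37 to 0.40, FDR 0.980). The differences of Bcl2l1 (-0.19), Bcl2l11 (0.03) and Birc2 (0.15) had FDRs of 0.314, 0.913 and 0.471. The highest upper bound of the 95% intervals of these genes was 0.41 on the log2 scale.

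Cell type markers set replicate 3 of both groups and replicates 4 and 5 of both groups apart from the rest. The 7 oligodendrocyte markers summed to 5304.5 CPM in IkbkbWT replicate 3 and 1897.7 CPM in IkbkbCA replicate 3, and to 331 to 788 CPM in the other 8 libraries. The 8 neuron markers summed to 331 and 344 CPM in IkbkbWT replicates 4 and 5. In IkbkbCA replicates 4 and 5 they summed to 323 and 353 CPM, and in the remaining libraries to 34.3 to 108 CPM. The 9 neutrophil markers summed to 16.99 to 85.5 CPM in IkbkbCA and 6.93 to 12.2 CPM in IkbkbWT; IkbkbCA replicate 3, the highest for Bcl2a1a, was highest here too. Most of that sum was S100a8 at 75.9 CPM, while the defining gene Ly6g had 1 read in that library and none in the other 9. The 8 markers of monocytes and border-associated macrophages summed to 485 to 1030.6 CPM in IkbkbCA and 1410.6 to 1975.5 CPM in IkbkbWT, with 3 of 4 tested falling. The 10 microglia markers summed to 15639.9 to 24848.3 CPM in IkbkbCA and 12958.6 to 17318.6 CPM in IkbkbWT, with 4 of 10 rising and 1 falling. The part of the microglia markers in the survival genes was not tested. Without replicate 3 of both groups, or with the 3 sets of libraries as a covariate, Bcl2a1a, Mcl1, Birc3 and Cflar were still DEGs. Bcl2a1d, let through the filter by IkbkbCA alone, passed with the covariate (FDR 0.0491) and in 1 fit of all 18 Ikbkb libraries (FDR 0.0315), and in no other alternative run.

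**Figure D3:**
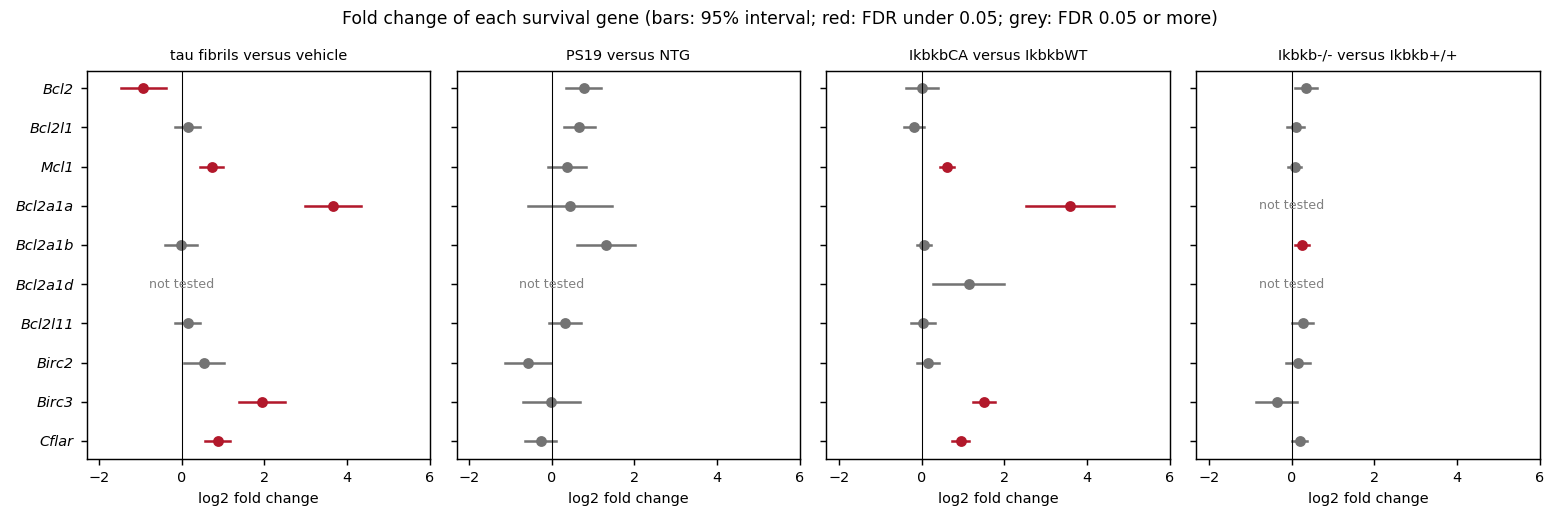
Log2 fold change (horizontal axes) of each survival gene in the 4 comparisons, with its 95% interval as a bar; red marks an edgeR FDR under 0.05 and grey an FDR of 0.05 or more. Bcl2a1a, Birc3, Cflar and Mcl1 are red and to the right of 0 in the tau and IkbkbCA panels, no gene is red in the PS19 panel, and Bcl2a1b alone is red in the Ikbkb-/- panel.

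The size of the tau response was compared with that of the IkbkbCA response by a test of the difference between them, in 1 fit of the 18 libraries. None of the 9 genes tested passed, beside 9.42% of 12841 genes, and 1 had an unadjusted p under 0.05. This was Bcl2, whose response was lower with tau by 1.01 ± 0.37 on the log2 scale (SE, FDR 0.0920). The difference was 0.02 for Bcl2a1a (95% interval -1.90 to 1.93), 0.04 for Mcl1 (-0.26 to 0.34), 0.36 for Birc3 (-0.15 to 0.87) and -0.15 for Cflar (-0.52 to 0.22). The interval of Bcl2a1a is wide, so a sizeable difference in either direction was not detectable. DESeq2 and limma-voom also called none of the 9.

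In Ikbkb-/- microglia, Bcl2a1b was the only survival gene called with all libraries in the fit, and it was higher. Of the 8 genes that passed the filter 1 was a DEG, beside 14.6% of 11242 genes tested and 7.64% called higher, and the groups did not overlap for 1 of the 8, beside 18.1% of all genes and 9.44% higher. That gene was Bcl2a1b, at 274, 276, 241 and 289 CPM in Ikbkb-/- and 217, 226, 226 and 238 CPM in Ikbkb+/+. The Ikbkb-/- libraries were all above the controls, by a log2 fold change of 0.25 ± 0.08 (SE, FDR 0.0388). The FDR rose to 0.0779 with total-count scaling and 0.111 without the filter, and leaving out any single library but Ikbkb-/- replicate 3 also put it over 0.05. Bcl2a1a (1.05 to 3.36 CPM in Ikbkb+/+, 1.13 to 2.21 CPM in Ikbkb-/-) and Bcl2a1d had too few reads to be tested.

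Of the genes that active IKKβ raised, Birc3, Mcl1 and Cflar did not pass the test for a fall in Ikbkb-/- microglia. Bcl2a1a could not be tested there, and its low control level left little room for a fall. Ikbkb RNA was reduced but still counted in these cells. Birc3 stood at 14.7, 15.6, 7.73 and 11.1 CPM in Ikbkb-/- and 20.5, 19.8, 10.9 and 12.6 CPM in Ikbkb+/+, with overlapping groups. Its log2 fold change was -0.36 (95% interval -0.85 to 0.14, FDR 0.366). Mcl1 differed by 0.08 (95% interval -0.08 to 0.23, FDR 0.545) and Cflar by 0.20 (95% interval 0.02 to 0.38, FDR 0.135), in the opposite direction to Birc3. Bcl2 differed by 0.35 ± 0.13 (SE, FDR 0.0870), with Ikbkb-/- replicates at 39.0, 41.3, 58.1 and 61.4 CPM and Ikbkb+/+ between 37.3 and 41.5 CPM. Without Ikbkb-/- replicate 1 or replicate 2, Bcl2 was the member called (FDR 0.0393 and 0.0339) and Bcl2a1b was not (FDR 0.0812 and 0.0873). The differences of Bcl2l11 (0.27), Birc2 (0.16) and Bcl2l1 (0.10) had FDRs of 0.146, 0.510 and 0.587. Of 5 other NF-κB pathway genes read in the same libraries, 3 fell. The feedback inhibitors Nfkbia and Tnfaip3 fell by 1.60 and 1.56 on the log2 scale (FDR 0.000385 and 0.000604), and the subunit gene Nfkb1 fell by 0.45 (FDR 0.00402). The subunit genes Nfkb2 (-0.34, FDR 0.246) and Relb (-0.16, FDR 0.423) did not pass. In IkbkbCA microglia all 5 rose, Nfkbia by 1.38, Tnfaip3 by 1.35, Nfkb1 by 0.58, Nfkb2 by 1.285 and Relb by 1.72. Their FDRs were 3.67e-05, 0.00289, 0.0220, 5.04e-05 and 1.83e-06. All 5 also rose and passed with tau, and none passed in PS19 microglia.

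The neutrophil markers summed to 426, 97.3, 39.7 and 8.20 CPM in Ikbkb+/+ replicates 1 to 4 and to 8.20 to 13.3 CPM in Ikbkb-/-. Elane was at 0 in both groups and Ly6g at 0 in Ikbkb-/-. The 7 oligodendrocyte markers summed to 574 to 662 CPM in Ikbkb-/- and 298 to 422 CPM in Ikbkb+/+, with 6 of 7 rising, and 4 of 5 tested markers of monocytes and border-associated macrophages fell. Without Ikbkb+/+ replicates 1 and 2, Birc3 differed by 0.01 (FDR 0.983) and Bcl2a1b by 0.21 (FDR 0.223). Beyond this alternative, the part of these markers was not tested.

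The difference between the IkbkbCA and Ikbkb-/- responses was itself tested in 1 fit of 18 libraries, and 4 of the 10 genes passed, beside 3.12% of 12352 genes and 2.23% in the positive direction. It was 3.49 ± 0.73 for Bcl2a1a (SE, FDR 0.00990), 1.89 ± 0.29 for Birc3 (SE, FDR 0.000564), 0.76 ± 0.13 for Cflar (SE, FDR 0.00203) and 0.55 ± 0.10 for Mcl1 (SE, FDR 0.00321). Each was more positive with active IKKβ. Bcl2a1a had too few reads to be tested in the Ikbkb-/- comparison alone. Its difference is close to the IkbkbCA response by itself (3.59) and says little about the effect of the deletion. With limma-voom the FDR of Bcl2a1a was 0.169, and the other 3 still passed.

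In PS19 microglia none of the 9 genes tested was a DEG, beside 0.0707% of 11323 genes, or 8 DEGs in all. The paper, which names edgeR and limma and the same FDR threshold, reported many more DEGs for PS19 microglia. What underlies this gap was not tested. At an unadjusted p under 0.05 edgeR gave 4 of the 9 and 977 of all genes. DESeq2 called 2 of the 9 (Bcl2l1 and Bcl2a1b, FDR 0.0219 and 0.0215) and 98 of all genes. With limma-voom none of the 9 was called, beside 4 of all genes. The groups did not overlap for 3 of the 9, all higher in PS19, beside 5.77% of all genes tested and 3.29% higher.

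Those 3 were guardians. The PS19 libraries had 157, 55.1, 113 and 59.2 CPM of Bcl2a1b, against 28.1, 49.0, 37.2 and 41.1 CPM for the NTG libraries, a log2 fold change of 1.31 ± 0.33 (SE, FDR 0.235). Bcl2l1 had 125, 143, 126 and 161 CPM in the transgenic and 92.8, 79.0, 79.3 and 98.9 CPM in the control libraries, with a log2 fold change of 0.67 ± 0.18 (SE, FDR 0.273). For Bcl2 the transgenic libraries had 33.8, 43.6, 37.5 and 32.6 CPM and the controls 23.6, 21.2, 18.1 and 23.9 CPM, with a log2 fold change of 0.77 ± 0.20 (SE, FDR 0.256). All 3 reached the smallest exact permutation p of 0.0286, and none passed the FDR over all genes. The summed A1 genes had 164, 75.6, 153 and 78.5 CPM in PS19 and 34.1, 76.3, 53.7 and 56.7 CPM in NTG. For this sum the groups overlapped (exact permutation p 0.0571), and the log2 fold change was 1.09 ± 0.31 (SE, FDR 0.324).

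The other members overlapped between PS19 and NTG. Mcl1 differed by 0.38 (95% interval -0.08 to 0.83, FDR 0.657), Bcl2l11 by 0.31 (-0.07 to 0.70, FDR 0.657) and Cflar by -0.27 (-0.64 to 0.11, FDR 0.697). Birc3 had 42.8, 114, 57.2 and 45.7 CPM in PS19 microglia against 54.7, 42.8, 83.3 and 78.4 CPM in NTG, with a difference of -0.00 (95% interval -0.70 to 0.69, FDR 0.999). Birc2 differed by -0.57 ± 0.26 (SE, FDR 0.570). Bcl2a1a had 5.93, 20.2, 34.4 and 17 CPM in PS19 microglia against 6.02, 21.97, 13.97 and 14.4 CPM in NTG microglia, a difference of 0.45 (95% interval -0.56 to 1.46, FDR 0.825).

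The neutrophil markers, all 9 of which were counted in both groups, summed to 398, 1593.2, 2428.9 and 908 CPM in PS19 replicates 1 to 4 and to 1522.7 to 2101.8 CPM in NTG. PS19 replicate 1 had the lowest sum and the lowest Bcl2a1a of its group, and replicate 3 the highest of both. In NTG, replicate 2 was highest for both, but the lowest Bcl2a1a was in replicate 1 (6.02 CPM) and the lowest sum in replicate 4 (1522.7 CPM). Without PS19 replicates 1 and 2, Bcl2a1b (FDR 0.0280) and Bcl2l1 (FDR 0.0414) passed the threshold, and so did 543 genes in all. The 2 PS19 libraries kept in that fit stand apart in other markers. Their astrocyte markers summed to 1804.9 and 1439.4 CPM against 636 to 962 CPM in NTG and 791 and 950 CPM in PS19 replicates 1 and 2, and their neuron markers to 16.5 and 13.97 CPM against 27.2 to 38.1 CPM in the other 6 libraries. The part of the neutrophil, astrocyte or neuron genes in these levels was not tested.

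The tau response in culture differed from the PS19 response for 5 of the 9 genes, beside 8.07% of 11852 genes, 4.42% in the positive and 3.65% in the negative direction. Bcl2a1a (3.14 ± 0.66, FDR 0.00333), Birc3 (1.85 ± 0.44, FDR 0.00918) and Cflar (1.05 ± 0.23, FDR 0.00469) had the more positive log2 change in culture. Bcl2 (-1.79 ± 0.38, FDR 0.00366) and Bcl2a1b (-1.41 ± 0.40, FDR 0.0305) had the more positive change in PS19 microglia. The call of Bcl2a1b was lost with limma-voom (FDR 0.0678). Culture, age, preparation and duration of exposure all differ between these experiments and cannot be told apart from the source of tau.

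**Figure D4:**
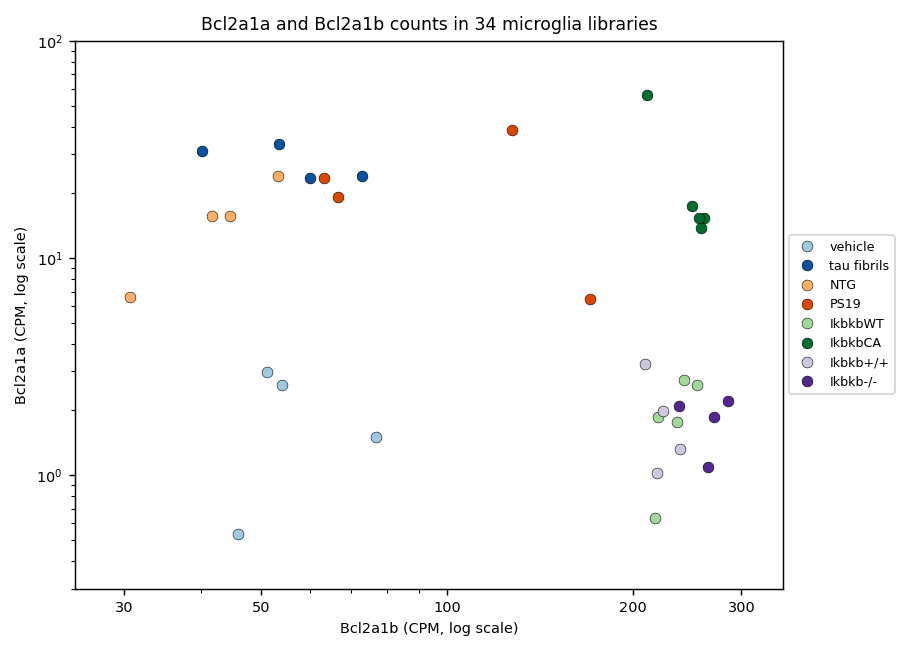
Level of Bcl2a1a (vertical axis, CPM, log scale) against Bcl2a1b (horizontal axis, CPM, log scale) in the 34 microglia libraries, coloured by group. Tau-stimulated and IkbkbCA libraries lie straight above their own controls, moved along the Bcl2a1a axis, and all adult libraries have at least 6.45 CPM of Bcl2a1a on this scale over all libraries.

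How the A1 counts divided between the copies separated the groups in the tau and IkbkbCA comparisons and overlapped in the PS19 and Ikbkb-/- comparisons. Both transcripts are of nearly equal length (819 and 817 bases) and 3′ libraries count ends, so shares of the A1 reads can be set side by side, within the limits on shared sequence given above. Bcl2a1a held 28.0%, 24.7%, 38.6% and 43.5% of A1 reads in the tau-stimulated libraries and 1.15%, 5.52%, 4.58% and 1.91% in the vehicle-treated ones. It held 5.49%, 6.43%, 20.8%, 5.59% and 5.00% in IkbkbCA replicates 1 to 5 and 0.288% to 1.11% in IkbkbWT. In Ikbkb-/- and Ikbkb+/+ microglia the share was 0.409% to 0.862% and 0.462% to 1.51%. Adult microglia held 17.6% to 28.8% in 7 of 8 libraries without regard to genotype, and 3.61% in PS19 replicate 1 (95% Wilson interval 2.62% to 4.96%). The tau-stimulated libraries rested on 145 to 236 A1 reads each and the IkbkbCA libraries on 1119 to 2002, and such intervals cover counting error only.

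Other genes of the cell death pathways were read from lists of 54 genes. With tau, 13 rose and 3 fell among the 39 tested, 33.3% and 7.69% beside 14.5% and 15.4% of all genes, with a median log2 fold change of 0.42 beside -0.01 over all genes. With total-count scaling 7 rose and 3 fell, 17.9% and 7.69% beside 10.2% and 21.7% of all genes, and the medians were 0.27 and -0.16. Tnfrsf1b, the second receptor for tumour necrosis factor, rose by 1.64 ± 0.16 on the log2 scale (SE, FDR 4.02e-09). Among the genes listed for death receptor complexes, Rnf31, the catalytic subunit of the linear ubiquitin ligase, rose by 1.62 ± 0.32 (SE, FDR 0.000311). Rnf31 had 28 to 42 reads with tau and 5 to 29 with vehicle, so not every vehicle library reached 10 reads. Traf2, the adaptor that carries the cIAPs, rose by 1.08 ± 0.28 (SE, FDR 0.00385). Casp8, the caspase that c-FLIP restrains, rose by 1.01 ± 0.23 (SE, FDR 0.00149).

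Within the IAP family, Birc5, which serves cell division, fell by 1.30 on the log2 scale with tau (FDR 3.10e-05). Naip2 rose by 1.13 ± 0.18 and Naip5 by 1.03 ± 0.39 (SE, FDR 2.86e-05 and 0.0445), sensors of bacterial proteins whose near-identical copies make the split of reads uncertain. Of the 3 pore-forming effectors, Bok fell by 1.27 on the log2 scale (FDR 0.0235), while Bax rose by 0.66 ± 0.22 and Bak1 by 0.62 ± 0.17 (SE, FDR 0.0222 and 0.00663). Bok had 4 to 9 reads with tau and 12 to 28 with vehicle, so it passed the filter only through the vehicle group. The BH3-only gene Bmf rose by 0.81 ± 0.30 (SE, FDR 0.0436). The calls of Naip5, Bmf and Bax were lost with total-count scaling (FDR 0.0929, 0.106 and 0.0859).

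In IkbkbCA microglia 5 of the 46 listed genes tested rose and 2 fell, 10.9% and 4.35% beside 7.31% and 7.16% of all genes, with a median of 0.12 beside -0.05 over all genes. The BH3-only gene Pmaip1, whose product NOXA binds MCL1, rose by 0.99 ± 0.19 (SE, FDR 0.00416), and the guardian Bcl2l2 by 0.95 ± 0.26 (SE, FDR 0.0284). Bax rose by 0.73 ± 0.17, Naip2 by 0.65 ± 0.12 and Traf2 by 0.57 ± 0.14 (SE, FDR 0.0150, 0.00443 and 0.0168). Birc5 fell by 0.75 on the log2 scale (FDR 0.0384). Between the tau and IkbkbCA responses, the difference passed for Tnfrsf1b (1.23 ± 0.20, FDR 0.000481), Rnf31 (1.48 ± 0.40, FDR 0.0235), Sharpin (0.81 ± 0.23, FDR 0.0297) and Tnfrsf1a (0.48 ± 0.14, FDR 0.0289), all more positive with tau. It passed for Pmaip1 in the other direction (-1.28 ± 0.34, FDR 0.0208).

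In Ikbkb-/- microglia 3 of 44 listed genes rose and 1 fell, 6.82% and 2.27% beside 7.64% and 6.96% of all genes, with a median of 0.10 beside 0 over all genes. Tnfsf10, which encodes the death ligand TRAIL, rose by 2.75 ± 0.47 (SE, FDR 0.000438). Its libraries held 1 to 6 reads in Ikbkb+/+ and 7 to 35 in Ikbkb-/-. It thus passed the filter only through Ikbkb-/-, and a difference was built into its being tested. The p53 targets Bbc3 and Bax rose by 0.76 ± 0.14 and 0.58 ± 0.13 (SE, FDR 0.000938 and 0.00419). Birc5 fell by 1.404 on the log2 scale (FDR 6.44e-07), the same direction as with active IKKβ. None of the 42 listed genes tested passed in PS19 microglia with edgeR.

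**Figure D5:**
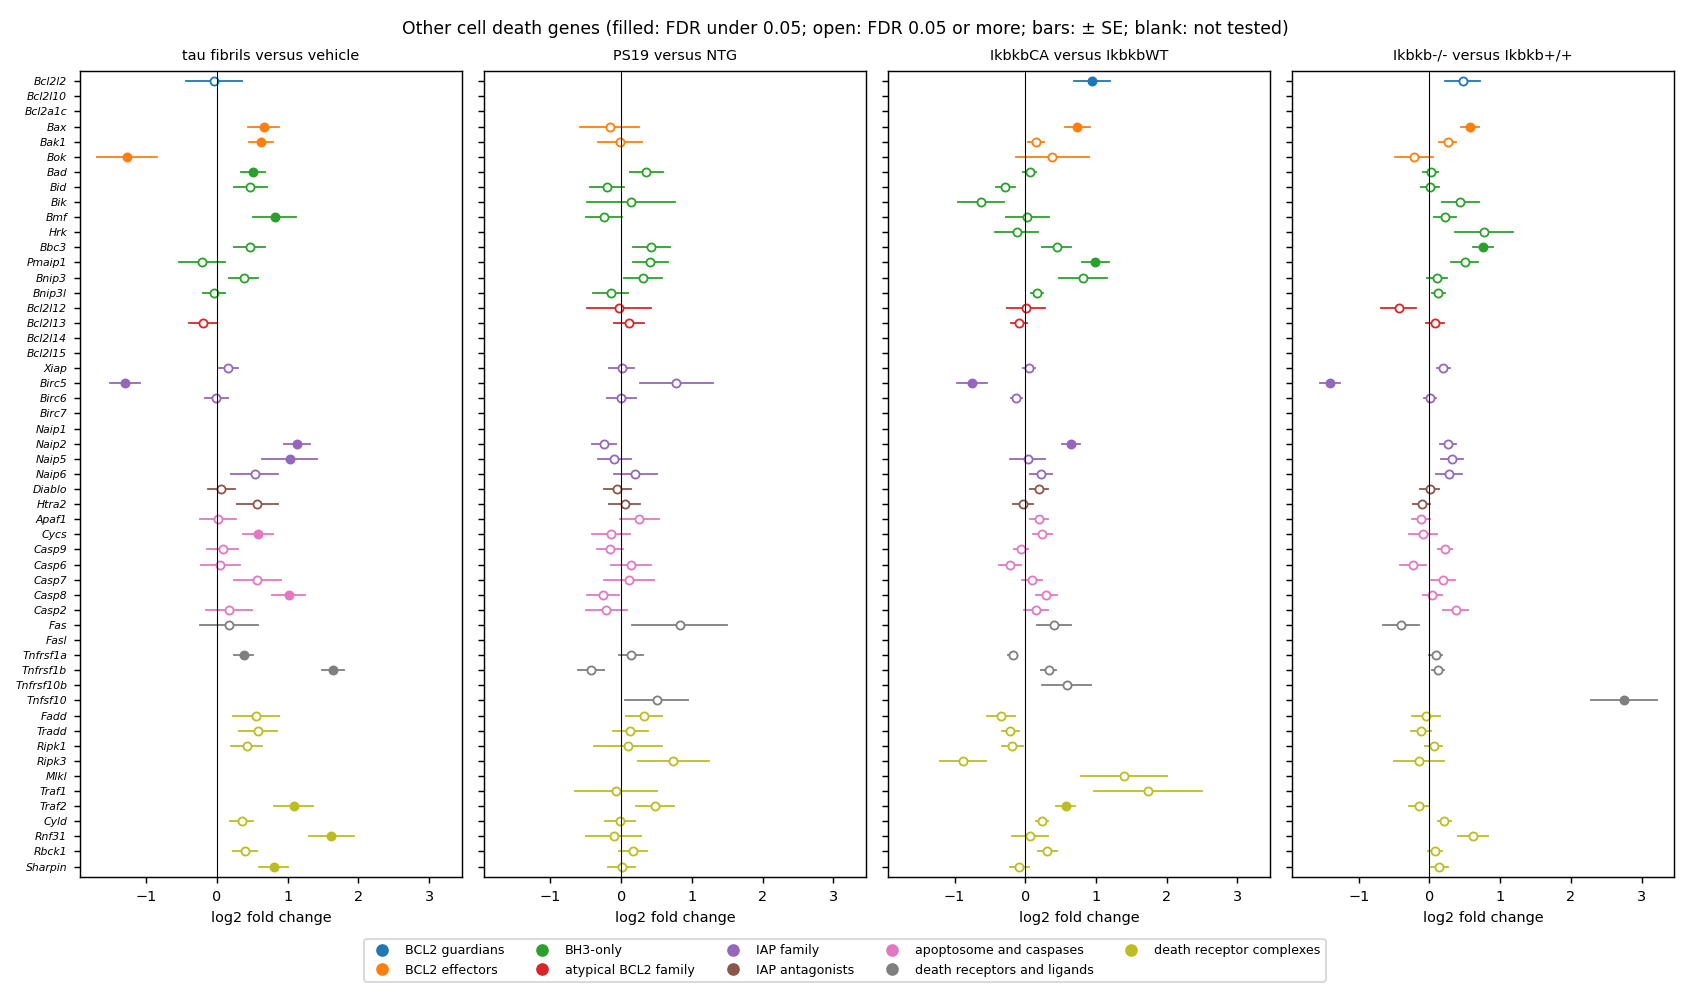
Log2 fold change ± SE (horizontal axes) of other listed cell death genes in the 4 comparisons, coloured by pathway list; filled points have an edgeR FDR under 0.05, open points do not, and a blank row was not tested. Filled points are most numerous in the tau panel, and the PS19 panel has none.

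The genes whose level ran most alike were sought among 8396 genes, over the 34 libraries after each was centred on its own experiment. Bcl2a1a was most like Psmd10 (r = 0.92) and Sod2 (r = 0.91), Birc3 most like Igsf6 (r = 0.90) and Rnf19b (r = 0.88), Mcl1 most like Tlr2 (r = 0.89) and Rab20 (r = 0.89), and Cflar most like Nampt (r = 0.88) and Acp2 (r = 0.87). The other members had lower coefficients. Centring on the experiment leaves the difference between its 2 groups in the values, so members with a large change can reach high coefficients through it alone. Bcl2a1b was most like Psmb6 (r = 0.83) and Ctsb (r = 0.82), and Birc2 most like Dock8 (r = 0.79) and Eif4e3 (r = 0.76). Bcl2l1 ran with Slc4a2 (r = 0.76), Bcl2 was most like Amz1 (r = 0.72) and Cd83 (r = 0.70), and Bcl2l11 most like Slc6a6 (r = 0.72) and Poldip3 (r = 0.67). The points share libraries and treatment, so these Pearson coefficients are a description.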

How the data were processed

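Microglia libraries were prepared by the authors with a QuantSeq 3′ mRNA-Seq kit and mapped to GRCm38 with GENCODE annotation on the BlueBee platform. The deposited files hold raw counts per Ensembl gene, 1 table per library, with no normalization by the authors. The methods name RSEM for the count table, although the files end in 5 summary lines of an HTSeq-like form, which were left out of library sizes. Symbols came from GENCODE M21, which holds 47224 of the 47643 identifiers. Library totals ran from 1672052 to 8349128, so low genes such as Bcl2a1d are the least precise.

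Groups were taken from the labels. Each comparison was fitted on its own libraries in R 4.3.3 with edgeR 4.0.16 (quasi-likelihood test, trimmed-mean scaling, filterByExpr with a minimum count of 10 and total of 15, Benjamini-Hochberg FDR over all genes tested). Differences between responses were tested in 1 fit of both experiments. Alternatives were RLE and total-count scaling, DESeq2 1.42.0, limma-voom (limma 3.58.1), other filters, leaving out each library, 1 joint fit of all 18 Ikbkb libraries, and covariates. Scripts were tested on simulated data. Permutation tests were exact and two-sided on CPM. The text names all 10 members, Ikbkb, the called genes of the other lists (at most the 10 largest changes in a comparison), and for each member with a mean of at least 5 CPM the 2 genes (mean at least 10 CPM) most like it. Tnfaip3, Nfkbia, Nfkb1, Nfkb2, Relb, Sharpin, Tnfrsf1a and, with tau, Bax and Bak1 were named after their values were seen. Some genes that the rule selects are counted but not reported here by name. The members and lists were chosen with earlier results of these data known. The 24 cortex samples were not analysed here.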

Additional observations from a re-analysis of the deposited data

Results flagged for a closer look

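Within groups of 4 or 5 libraries, 7 of 80 tests of a member in a group found 1 library far from the rest of its group (chance flags about 1 in 20 groups). IkbkbCA replicate 3 had 56.1 CPM of Bcl2a1a where the other libraries had 13.7 to 17.4 CPM, and 211 CPM of Bcl2a1b where the others reached up to 261 CPM. Tau replicate 4 had 10.4 CPM of Bcl2 (21 reads) where the others had 21.03 to 23.9 CPM. Ikbkb-/- replicate 2 had 139 CPM of Bcl2l1 against 168 to 173 CPM, and Ikbkb-/- replicate 4 had 200.5 CPM of Cflar against 173 to 175 CPM. The other 2 rest on 1 read each: Bcl2a1d at 0.495 CPM in tau replicate 4, and at 0.158 CPM in IkbkbWT replicate 4 against 0.972 to 1.32 CPM. These CPM are scaled over all 34 libraries.

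The response differed between experiments, by a test of the difference itself, in 9 of 28 tests of a member. Between IkbkbCA and Ikbkb-/- it differed for Mcl1 (0.55), Bcl2a1a (3.49), Birc3 (1.89) and Cflar (0.76), as log2 differences. Of these, Bcl2a1a had too few reads to be tested in the Ikbkb-/- comparison alone. Between tau in culture and PS19 it differed for Bcl2 (-1.79), Bcl2a1a (3.14), Bcl2a1b (-1.41), Birc3 (1.85) and Cflar (1.05). What underlies these differences was not tested.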

How the results depend on the processing

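The members called with tau (5) and in IkbkbCA microglia (4), and the calls of each difference between responses, stayed within 1.5 times their number under every alternative run, although single calls were lost or gained (Bcl2a1b in the difference of tau and PS19 with limma-voom, Bcl2a1d in IkbkbCA in 2 fits). With tau, leaving out each library gave 4 to 5 members. In PS19 the members called were 2 with DESeq2, 1 without a filter, 2 without PS19 replicates 1 and 2 together, and 0 to 1 with each library left out (1 without PS19 replicate 2, which was Bcl2a1b). All genes called in PS19 were 98 with DESeq2, 4 with limma-voom, 166 without a filter, 0 with age as a covariate (552 at an unadjusted p under 0.05), 543 without PS19 replicates 1 and 2, and 4 to 54 with each library left out. In Ikbkb-/- the members called were 0 with total-count scaling, without a filter, in 1 fit of 18 libraries and without Ikbkb+/+ replicates 1 and 2, and 0 to 1 with each library left out (Bcl2 in place of Bcl2a1b without Ikbkb-/- replicate 1 or 2), and all genes called were 875 in the 1 fit. All genes called in IkbkbCA were 2846 with the 3 sets of libraries as a covariate.

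Total-count scaling moved the median of all genes to -0.16 with tau and -0.11 in IkbkbCA. It changed the split of DEGs higher and lower from 1506 and 1602 to 1057 and 2254 with tau, and from 855 and 837 to 753 and 1252 in IkbkbCA. Only values near 0 changed sign with it: Bcl2l1 (-0.012) and Bcl2l11 (-0.0056) with tau, Bcl2 (-0.053), Bcl2a1b (-0.0050) and Bcl2l11 (-0.030) in IkbkbCA, Birc3 (0.015) in PS19, and Birc2 (-0.030) in the difference of IkbkbCA and Ikbkb-/-. Birc3 in PS19 also changed sign with RLE factors (0.0026), DESeq2 (0.0066), no filter (0.03), a minimum of 10 counts in each library (0.0019), and a covariate for reads outside genes (0.18), and ran from -0.40 to 0.15 with each library left out. Other changes of sign were Bcl2a1b with tau (0.0032 without a filter, 0.51 as the summed A1 genes, -0.16 to 0.15 with each library left out), Bcl2 in IkbkbCA (-0.0045 with 3 sets of libraries, -0.082 to 0.14 with each left out), Bcl2l11 in IkbkbCA (-0.052 to 0.10 with each left out), Birc3 in Ikbkb-/- (0.014 without Ikbkb+/+ replicates 1 and 2), and Birc2 in the difference of IkbkbCA and Ikbkb-/- with limma-voom (-0.015). The cause was not tested. Of 742 recomputed member values, 685 kept their direction and their side of the threshold. The 3 sets of libraries and the fits without 2 libraries were chosen after seeing the data, and Bcl2a1a had no value in the tau and IkbkbCA comparisons where every library needed 10 counts. No paired analysis was possible because the labels give the groups of a comparison no shared replicate numbers; the numbers used here follow accession order and only name libraries.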
